A study of Mus musculus with 24 samples.

Results

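The small RNA libraries of the mouse nucleus accumbens (NAc), a reward-related region of the ventral striatum, list 81 rows named mir-297, mir-466, mir-467 or mir-669 among 1180 rows of miR precursors. Every row was taken whose name begins with one of these 4 family names, followed by a letter, a hyphen or nothing. The families make up most of a large cluster of miR hairpins inside *Sfmbt2*, a gene for a polycomb group protein, and 70 of the 81 rows were placed there. The deposited values are raw read counts, with one row for each precursor, so that the products of both arms of a hairpin are counted together.

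All mice were C57BL/6J, 9 weeks old by the labels, and no allele or transgene differed between groups. Unstressed males (NSM), males exposed to subchronic variable stress (SCVS; SM), unstressed females (NSF) and stressed females (SF) gave 3 small RNA libraries each. A library pooled 10 NAc punches from 5 mice, so that differences between single mice are not seen. SCVS consisted of foot shock, tail suspension and restraint in turn, tissue was taken the day after the last session, and all females were in estrus or proestrus. Polyadenylated RNA of the same groups was sequenced in 12 further libraries, which are used here for *Sfmbt2* and for marker genes. The paper states that both RNA fractions came from the same dissections, so that small RNA and mRNA libraries with the same label may share tissue.

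A miR precursor folds into a hairpin that Drosha and Dicer cut into a short mature strand, and bases 2 to 8 of that strand, the seed, largely set which messenger RNAs it pairs with. Hairpins within an intron can be cut from the primary transcript of their host gene. The *Sfmbt2* cluster is known from rodents, where it grew by repeated duplication of a few hairpins, and it is best known from the placenta, in which *Sfmbt2* is imprinted and expressed from the paternal allele. Because many hairpins of the cluster are close copies, a short read can match several of them.

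Mature sequences were found in RefSeq (build GRCm38.p6) for 8 of the 81 members, all of them among the 10 members that lie outside *Sfmbt2*. They are shown because each of them carries a repeat-like sequence, with the seed in capitals. Whether the members inside *Sfmbt2* carry it was not examined.
mir-466q: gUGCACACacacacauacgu
mir-466k: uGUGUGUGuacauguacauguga
mir-466j: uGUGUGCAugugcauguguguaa
mir-466i-3p: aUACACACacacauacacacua
mir-467f: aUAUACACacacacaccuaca
mir-467g: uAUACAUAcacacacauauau
mir-467h: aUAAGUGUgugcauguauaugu
mir-669n: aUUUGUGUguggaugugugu
No seed was shared among the 8. Each of the 8 held a run of 6 alternating bases, either UGUGUG or its shifted form GUGUGU, which can overlap, or one of their reverse complements CACACA and, again shifted, ACACAC. In all, 49 of the 1738 mature sequences in the RefSeq table held such a run (2.82%). On GRCm38.p6, mir-466q lies at chr3:28419988-28420007 on the plus strand and mir-467f at chr11:69635419-69635439 on the minus strand. Of these members mir-466q had 45 reads over the 12 libraries, mir-466j had 2, mir-669n had 1, and the other 5 had none. Sequences of the other 73 members were not used here.

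*Sfmbt2* (ENSMUSG00000061186) lies on chromosome 2 of build NCBIM37, which the files use, from 10292137 to 10516880 on the plus strand. Its transcript with the most exons, by which introns are numbered here, has 24 exons. By their names in the GENCODE annotation of that build, 65 members lay within the gene between 10388571 and 10439906, a span of 51.3 kb. All 65 were on the strand of *Sfmbt2*, all were in intron 11 and none overlapped an exon. A further 5 members (mir-297a-2, mir-466m, mir-466o, mir-467a-7 and mir-467a-9) were assigned to *Sfmbt2* by RefSeq name alone, 10 were elsewhere, and mir-466a was not placed.

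Families alternated along the intron. In 9 places a mir-467 row, a mir-466 row and a mir-669 row stood next to each other in that order, with starts 0.282 to 0.292 kb apart for the first pair and 0.218 to 0.229 kb apart for the second. From one such run to the next the distance was 2.47 kb in the median. Within these runs the reads differed by family. The 9 mir-467 rows of these runs had between 377 and 643 reads over the 12 libraries, whereas the 9 mir-466 rows had a median of 4 reads and 6 of the 9 mir-669 rows had none.

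**Figure D1:**
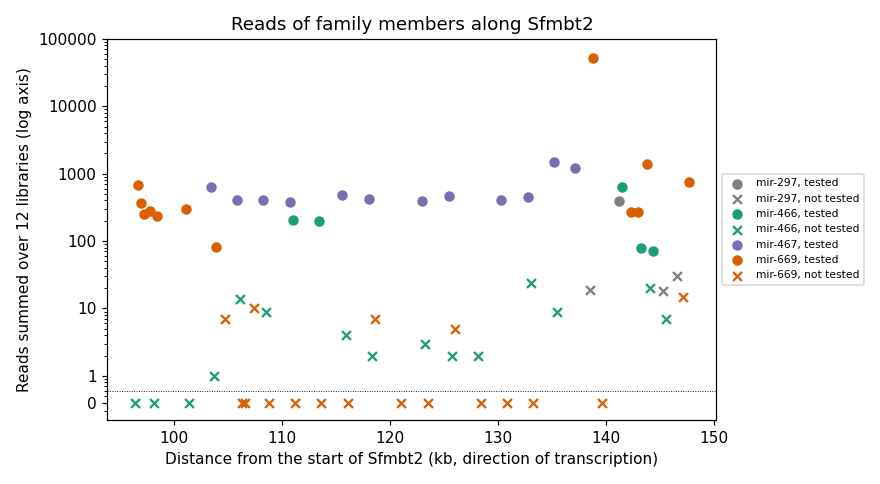
Reads of the members placed within *Sfmbt2* by the GENCODE annotation, summed over 12 libraries (log axis, members without a read below the dotted line), against their distance in kb from the start of the gene. Circles are tested members and crosses are members with too few reads, and mir-669c stands far above its neighbors with 51652 reads.

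Detection was uneven between the families. Between 5086554 and 13522287 reads were counted per small RNA library, 101553121 in all, and 66478 of them (0.0655%) fell on the 81 members. No read was counted in any library for 21 members (25.9%, against 24.1% of all rows). By counting error alone, this allows a level of up to 0.0295 CPM over the 12 libraries together (3 reads in the total). CPM stands here for counts scaled to library size. The limit does not cover reads lost in alignment or counting, so that a row without reads need not mean absence. Outside the families, mir-451a had no read in any library, although the paper lists miR-451a as upregulated in stressed males. For 28 further members between 1 and 45 reads were found in all, at most 10 in 19 of them, too few to be tested. A row was tested if every library of at least one group had more than 5 reads, which held for 32 members (39.5%, against 42.4% of all rows). Of the 32, 29 met this in every group, while mir-466n met it only in NSM, and mir-466h and mir-669a-3 only in SF, so that the filter favored rows high in that group. All 3 had a mean under 10 reads.

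Mir-297 was the smallest family, with 6 rows, all with reads, 472 reads in all and 1 tested member, mir-297b. For mir-466, 28 rows held 1353 reads, 6 rows had none and 5 were tested. Most of mir-467 was detected, since 14 of its 17 rows were tested and 3 had no read, and it held 8064 reads. Of the 30 mir-669 rows 12 had no read and 12 were tested. Mir-669c alone took 51652 of the 56589 reads of this family, 77.7% of the reads of all members. It ranked 136 among the 1180 rows by reads and the next member, mir-467e, ranked 275. All 32 tested members lay within *Sfmbt2*, and the 10 members elsewhere held 49 reads together.

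Levels are given from here in CPM scaled between libraries by TMM factors. Mir-669c (chromosome 2 from 10430923 to 10431031) had a mean of 508 CPM over the 12 libraries. The next members were mir-467e with 14.7 CPM, mir-669o with 13.9, mir-467d with 12.1, mir-669h with 7.64, mir-669f with 6.77, mir-467c with 6.29 and mir-466d with 6.25. The copies of mir-467a followed, from mir-467a-3 with 4.96 CPM downward, then mir-297b with 3.87. Apart from the step below mir-669c, whose lowest library had 352 CPM, neighbors in this order overlapped in their libraries. Mir-467e ranged from 12.4 to 18.9 CPM, mir-669o from 10.7 to 18.1 and mir-467d from 9.27 to 13.7. In mir-297, mir-297a-4 with 0.285 CPM and mir-297c with 0.188 were next after mir-297b, and neither was tested.

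Several of the better measured members varied little over the groups. Mir-467c had 6.18 ± 0.594 CPM (SD, n = 3) in NSM, 6.23 ± 0.612 in SM, 6.11 ± 0.282 in NSF and 6.65 ± 0.233 in SF. Mir-467d had 12.4 ± 1.32, 11.3 ± 1.69, 11.8 ± 2.26 and 12.7 ± 0.745 CPM in the same order, and mir-297b had 3.67 ± 0.565, 3.73 ± 0.376, 4.26 ± 1.36 and 3.84 ± 0.741. None of these 3 was called in any comparison. Mir-466d, the most abundant of its family, had 7.14, 5.94 and 7.24 CPM in NSM, 6.26, 5.81 and 5.09 in SM, 6.35, 7.35 and 6.96 in NSF and 6.60, 6.12 and 4.13 in SF. Mir-669o had 14.1 ± 2.42, 11.4 ± 1.11, 16.6 ± 1.64 and 13.4 ± 4.02 CPM, with SF replicate 2 as high as the highest NSF library. Mir-669h had 8.17 ± 0.445 CPM in NSM and 6.69 ± 0.399 in SM, and in females 8.46 ± 1.13 and 7.22 ± 1.52. Mir-466d, mir-669o and mir-669h had lower means after SCVS in both sexes and were not called.

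Rows whose names differ only in the copy number divided their reads in different ways. The 10 rows of mir-467a held 4361 reads, from 398 for mir-467a-5 to 490 for mir-467a-3. In single libraries a copy's share ranged from 6.56% to 15.2%. This variation between libraries was no larger than counting error (chi-square per degree of freedom 0.975, 99 degrees of freedom), while the totals departed from an even split by somewhat more (2.15, 9 degrees of freedom). Other sets were split as evenly, with 203 and 201 reads for the 2 rows of mir-466c, 271 and 268 for mir-669m, and 295 and 279 for mir-669d-2 and mir-669d. By contrast, mir-669a-3 held all 81 reads of the 12 mir-669a rows. The 4 mir-466f rows had no read. Reads of mir-466b were few and uneven, 52 over 8 rows of which mir-466b-3 took 24, and mir-297a held 57 reads over 4 rows, from 1 to 30. No 2 tested rows had the same counts in all 12 libraries. How a read that matched several copies was assigned is not given in the sources used here, so that the level of a single copy is uncertain.

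**Figure D2:**
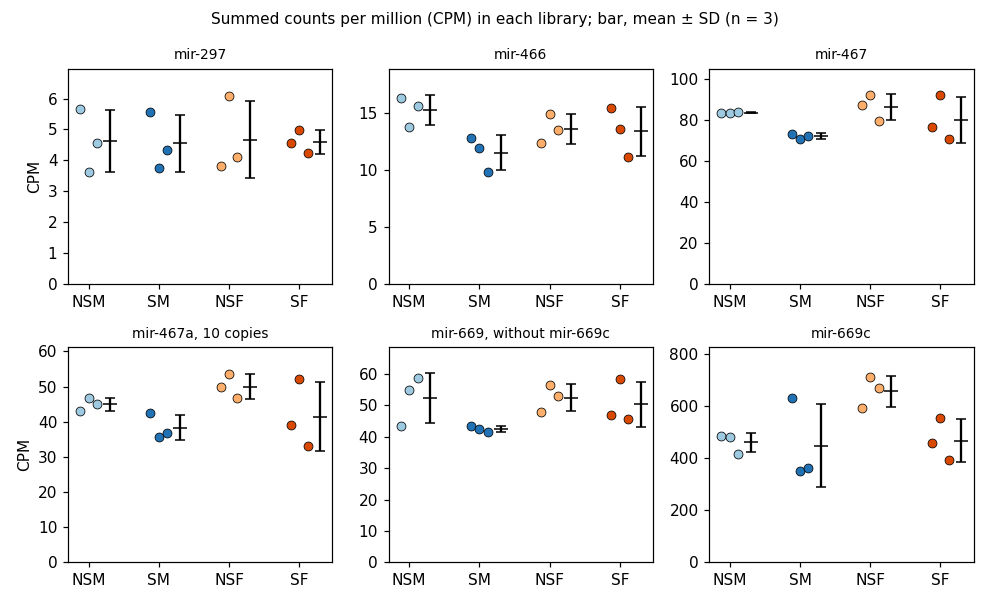
Summed CPM of the families, of the 10 mir-467a copies and of mir-669c in each of the 12 libraries (points) with the mean ± SD of each group (n = 3). The SM libraries of mir-466 and mir-467 lie below all NSM libraries, and the NSF libraries of mir-669c lie above all NSM and SF libraries.

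Summed over its members, mir-467 had 83.2, 83.5 and 83.9 CPM in the NSM libraries and 73.3, 70.6 and 72.4 CPM in the SM libraries, so that the groups did not overlap and the stressed mean was lower by 13.7%. In females it had 87.2, 92.1 and 79.6 CPM without stress and 76.8, 92.3 and 70.6 CPM after SCVS, and these overlapped. Mir-466 had 16.4, 13.8 and 15.6 CPM in NSM and 12.9, 11.9 and 9.87 in SM, again without overlap, and 13.6 ± 1.29 and 13.4 ± 2.16 in NSF and SF. With scaling by library size or by DESeq2's size factors, the SM libraries of mir-466 and mir-467 also lay below all NSM libraries. Mir-669 without mir-669c had 52.4 ± 8.02 CPM in NSM and 42.6 ± 0.875 in SM, and the 2 groups met at 43.4 CPM. Mir-297 had group means between 4.55 and 4.67 CPM. These sums were not tested.

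Mir-669c had another pattern than these sums. It had 484, 479 and 417 CPM in NSM, 630, 352 and 360 in SM, 591, 709 and 668 in NSF and 456, 553 and 391 in SF. Every NSF library lay above every NSM library, under all 3 scalings, and above every SF library, although with scaling by library size the NSF and SF libraries overlapped (568.6 as the lowest NSF and 568.7 as the highest SF value). In SM the first library stood apart from the others and was the highest of all male libraries.

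Comparing stressed with unstressed males, 3 of the 32 tested members were regulated by SCVS, all downregulated, by a limma p under 0.05 before adjustment and at least a 1.3-fold difference. That is 9.38% of the members, against 5.2% of all 500 tested rows (2.4% downregulated and 2.8% upregulated). An unadjusted p under 0.05 alone was found for 4 members and for 12.4% of the rows, and none of the 32 had an adjusted p under 0.05 (smallest 0.252, limma). Mir-466n had 1.19, 1.15 and 1.72 CPM in NSM and 0.515, 0.809 and 0.309 in SM (log2 fold change -1.23, standard error (SE) 0.45), from between 2 and 11 reads per library. Mir-466n was tested only because of its NSM libraries, so that the filter favored a lower value in SM. Its call was lost without NSM replicate 3, at -1.04. For mir-466c-1 the NSM libraries had 2.53, 2.11 and 1.91 CPM and the SM libraries 1.89, 1.03 and 1.70 (-0.62, SE 0.29). This call was kept in 2 of the 12 fits that left out 1 library, and the value was -0.28 without SM replicate 2. Mir-467a-3 had 5.80, 5.56 and 5.72 CPM in NSM and 4.29, 4.41 and 3.09 in SM (-0.51, SE 0.23), a call kept in 5 of 12 such fits and lost at -0.40 without SM replicate 3. In each of these 3 members the groups did not overlap.

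Beyond these calls, 25 of the 32 log2 fold changes in males were below 0 (78.1%, against 53.4% of all tested rows), with a median of -0.23, against -0.01 over all rows. By family these were 4 of 5 in mir-466, 11 of 14 in mir-467, 9 of 12 in mir-669 and the 1 tested member of mir-297. Among rows with a mean of 10 to 200 reads, 22 of 28 members (78.6%) and 57.5% of all rows were below 0. When 1 library was left out the share lay between 75% and 84.4% and the median between -0.30 and -0.17. For 9 members (28.1%) all SM libraries lay below all NSM libraries, as they did for 11.4% of the tested rows, and for no member did they lie above, as they did for 8.2%. These 9 were the 3 regulated members together with mir-467a-8, mir-467b, mir-467e, mir-669b, mir-669f and mir-669h, and for mir-466n the filter favored this direction. The most abundant of them, mir-467e, had 16.6, 13.6 and 18.9 CPM in NSM and 12.4, 12.9 and 13.6 in SM (-0.33, SE 0.13, adjusted p = 0.279, limma), and its difference was under 1.3-fold. In females it had 14.5 ± 0.654 CPM in NSF and 14.8 ± 0.664 in SF. Because the copies of a set divide one pool of reads, these counts do not stand for 32 separate measurements.

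**Figure D3:**
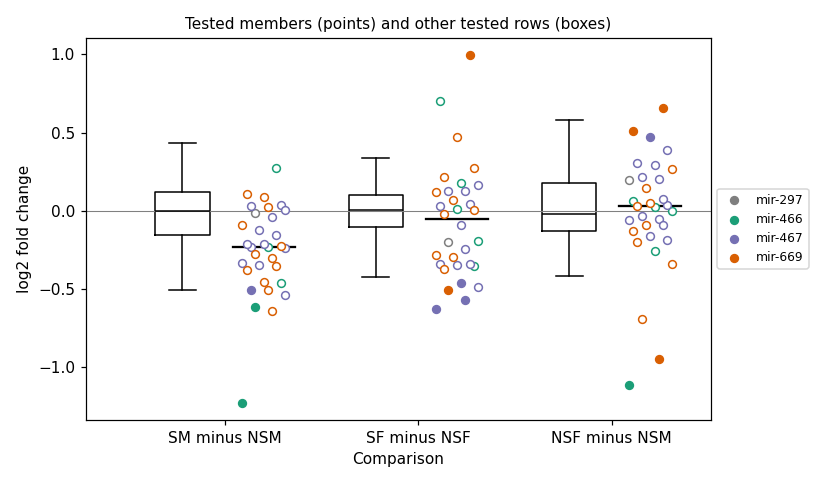
Log2 fold changes of the 32 tested members (points, filled where regulated) and of the other tested rows (boxes from the lower to the upper quartile, whiskers from the 5th to the 95th percentile) in 3 comparisons. The bars mark the members' medians, -0.23 for SM minus NSM, -0.06 for SF minus NSF and 0.03 for NSF minus NSM.

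Among females, SCVS regulated 5 of 32 members (15.6%, against 4.8% of all tested rows), 4 of them downregulated (12.5%, against 3.4% of rows) and 1 upregulated (3.12%, against 1.4%). An unadjusted p under 0.05 was found for the same number of members and for 8% of the rows, and again no member had an adjusted p under 0.05 (smallest 0.344, limma). Mir-669c was downregulated (log2 fold change -0.51, SE 0.18, adjusted p = 0.393, limma), and the call was lost without SF replicate 3, at -0.39. The other 3 downregulated rows were copies of mir-467a. Mir-467a-4 had 5.22, 4.93 and 4.25 CPM in NSF and 3.62, 3.70 and 2.61 in SF, without overlap (-0.57, SE 0.20, and -0.39 without SF replicate 3, no longer called). In mir-467a-8 the values were 4.94, 5.51 and 5.41 CPM in NSF and 2.66, 5.26 and 3.15 in SF (-0.63, SE 0.21, and -0.44 without SF replicate 1, no longer called), so that SF replicate 2 lay among the unstressed libraries. Mir-467a-1 had 4.09, 5.41 and 4.64 CPM in NSF and 2.87, 4.55 and 3.33 in SF (-0.46, SE 0.21). With the replicate number as a block, which pairs the female libraries, it was -0.44 and no longer called, and it kept its call in 5 of 12 fits without 1 library.

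The upregulated member in females was mir-669a-3, with 0.423, 0.580 and 0.515 CPM in NSF and 1.28, 0.996 and 0.989 in SF (log2 fold change 1.00, SE 0.39). Between 3 and 12 reads stood behind each of these values, and the row was tested only because of its SF libraries. The call was lost without NSF replicate 1 (0.90) or SF replicate 1 (0.88). Over the 32 members, 17 log2 fold changes were below 0 (53.1%, against 48.4% of rows), with a median of -0.06. Single libraries moved these values: without NSF replicate 2 the share was 40.6% and the median 0.06, and without NSF replicate 3 they were 71.9% and -0.17. All SF libraries lay below all NSF libraries for 3 members (9.38%, against 6% of rows), mir-467a-4, mir-467a-7 and mir-669c, and above them for mir-467c and mir-669a-3 (6.25%, against 7.6%).

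**Figure D4:**
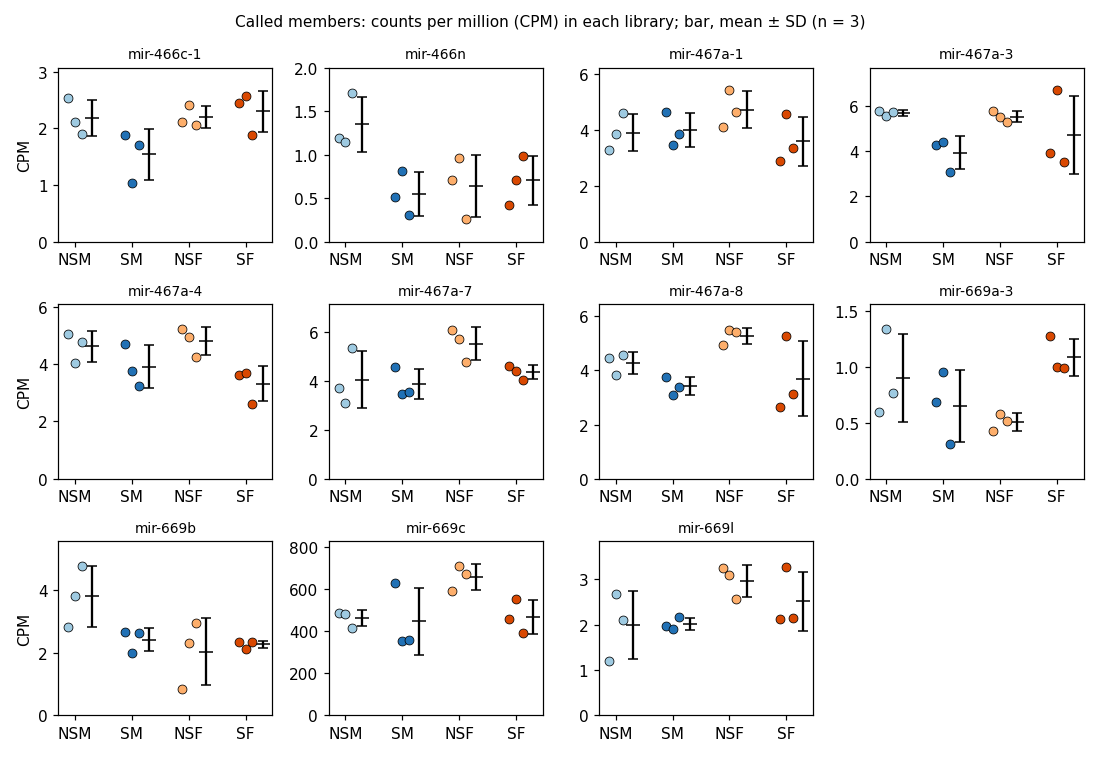
CPM of the 11 members regulated in at least one comparison, in each of the 12 libraries (points), with the mean ± SD of each group (n = 3) on axes that start at 0. Mir-669c is far above the others, and mir-466n and mir-669a-3 stay below 2 CPM in every library.

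Since the names of the mir-467a rows differ only in the copy number, their separate calls were set against their sum. In females the log2 fold changes of the 10 copies ran from -0.63 for mir-467a-8 to 0.17 for mir-467a-5, with an SD of 0.24, while the counting error of a single copy was 0.19 in the median. For males they ran from -0.54 to 0.03 (SD 0.20, counting error 0.21). The summed mir-467a reads gave 43.1, 46.7 and 45.0 CPM in NSM and 42.5, 35.8 and 36.7 in SM, which overlapped under the other scalings. In NSF the sum had 49.8, 53.6 and 46.6 CPM and in SF 39.1, 52.2 and 33.1, where SF replicate 2 again lay among the unstressed libraries. Fitted as 1 row, mir-467a had a log2 fold change of -0.24 (SE 0.14) in males and -0.33 (SE 0.13) in females, and it was called in neither. With the copies of every set summed, 20 member rows were tested, and 2 were regulated in males, mir-466n and mir-466c (-0.50, SE 0.23), and 2 in females, mir-669c and mir-669a. The share of calls over all 488 rows of that fit is not given here. The filter favored mir-466n, tested only because of NSM, and mir-669a, whose reads were all from mir-669a-3, tested only because of SF.

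**Figure D5:**
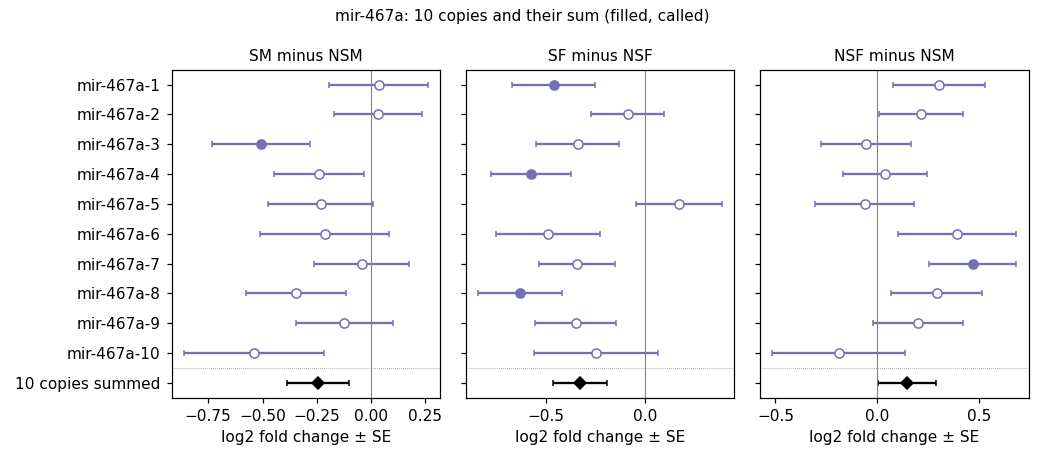
Log2 fold change ± SE of each of the 10 mir-467a copies (filled where regulated) and of their sum in 3 comparisons. One copy is regulated in males, 3 in females and 1 between the unstressed groups, while the sum is regulated in none of the 3.

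Unstressed females compared with unstressed males differed in 5 of 32 members (15.6%, against 7.6% of all tested rows), 3 higher (9.38%, against 5.8%) and 2 lower (6.25%, against 1.8%). The same 5 had an unadjusted p under 0.05, as did 16.2% of the rows, and the smallest adjusted p was 0.189 (limma). Mir-669c was higher in females (log2 difference 0.51, SE 0.18), a call lost without NSM replicate 3 or NSF replicate 2, both at 0.45. Mir-669l had 3.24, 3.09 and 2.58 CPM in NSF and 1.19, 2.68 and 2.10 in NSM (0.66, SE 0.29, and 0.29 without NSM replicate 1, no longer called). The copy mir-467a-7 was higher as well (0.47, SE 0.21), a call kept in 4 of 12 fits without 1 library, while the sum of its set was not called (0.15, SE 0.14).

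Lower in unstressed females were mir-669b, with 0.846, 2.32 and 2.96 CPM in NSF and 2.82, 3.83 and 4.76 in NSM (-0.95, SE 0.35), and mir-466n, with 0.705, 0.966 and 0.258 CPM in NSF (-1.11, SE 0.46). Without NSF replicate 1 mir-669b was at -0.50, and without NSF replicate 3 mir-466n was at -0.63, and neither was then called. Both calls were also lost without NSM replicate 3, at -0.77 and -0.95. As mir-466n was tested only because of its NSM libraries, the filter favored a lower value in NSF. In mir-669l and mir-669b the groups overlapped. All NSF libraries lay above all NSM libraries for mir-467a-8 and mir-669c (6.25% of members, against 12.2% of rows) and below them for mir-466n and mir-669a-3 (6.25%, against 11%). Of the 32 values 15 were below 0 (46.9%, against 53% of rows). This comparison shares the NSM libraries with the male and the NSF libraries with the female stress comparison, so that its values are not independent of those above.

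The stress effect differed between the sexes, by the sex-by-stress interaction of the model, in 2 of 32 members (6.25%, against 6.8% of all tested rows, and 8.8% of rows by the unadjusted p alone). These were mir-466n, at 1.41 on the log2 scale (SE 0.65, adjusted p = 0.542, limma), and mir-669a-3, at 1.38 (SE 0.56, adjusted p = 0.486, limma). Both passed the filter in a single group, mir-466n in NSM and mir-669a-3 in SF, so that the filter favored these directions. With the replicate number as a block mir-466n was at 1.37 and no longer called. Mir-669c had an interaction of -0.42 (SE 0.26, adjusted p = 0.647, limma), so that its lower level in stressed females was not shown to differ from the change in males, and it was called at -0.58 without SM replicate 2. The interaction was below 0 in 13 members (40.6%, against 46.8% of rows).

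Messenger RNA of the host gene was low. *Sfmbt2* had 6.07, 5.53 and 6.82 CPM in NSM, 5.16, 4.36 and 5.05 in SM, 4.06, 5.18 and 4.80 in NSF and 4.26, 5.59 and 4.72 in SF, from between 180 and 346 reads per library. Its NSM libraries lay above all SM and all NSF libraries. Males had a log2 fold change of -0.34 (SE 0.12, adjusted p = 0.141 over 18593 genes, limma), under the 1.3-fold threshold, where 6.44% of the genes were called and 21.5% had an unadjusted p under 0.05. Females had 0.04 (SE 0.13), where these shares were 1.73% and 4.23%. The interaction was 0.38 (SE 0.18, adjusted p = 0.525, limma) and was not called, with shares of 4.42% and 9.55%. Unstressed females had less *Sfmbt2* mRNA than unstressed males (-0.38, SE 0.12, adjusted p = 0.163, limma), a call by the unadjusted p that 5.31% of the genes shared, with 15.4% by the p alone. That call was lost without NSM replicate 3 (-0.31) or NSF replicate 1 (-0.30). In SM, *Sfmbt2* mRNA and the summed mir-466 and mir-467 levels all lay below NSM without overlap. In NSF, *Sfmbt2* mRNA lay below NSM without overlap as well, but the summed levels overlapped. Mir-466 had means of 13.6 CPM in NSF and 15.3 in NSM, and mir-467 had 86.3 and 83.5. The share of genes whose groups did not overlap is not given here. In NSF, where mir-669c had its highest mean, *Sfmbt2* mRNA had 4.68 ± 0.571 CPM (SD, n = 3), within the spread of SM (4.86 ± 0.434) and SF (4.86 ± 0.679). In bulk tissue, fewer cells that express a transcript and less RNA per cell cannot be told apart.

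Of the genes that make and load miRs, 14 of 14 were tested and none was called in any of the 4 comparisons. Their summed level was 1249 to 1294 CPM in NSM and 1171 to 1176 in SM, without overlap. In females it was 1187 to 1265 CPM in NSF and 1148 to 1220 in SF. The median log2 fold change of these genes was -0.06 in males and -0.04 in females. *Drosha*, which cuts the primary transcript, had a log2 fold change of 0.02 in males (SE 0.04), and *Dicer1*, which cuts the hairpin, -0.15 (SE 0.06). *Ago2*, an Argonaute protein that holds the mature strand, was lower in stressed males by less than 1.3-fold (-0.34, SE 0.06, adjusted p = 0.00853, limma).

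Markers of striatal projection neurons were present in every library (6 of 6 tested, summed level 2913 to 3798 CPM) and none was called. Cortical glutamatergic markers summed to at most 20.4 CPM in NSM, 46.2 to 190 in SM, 20.2 to 348 in NSF and 41.1 to 110 in SF, with 1 of 4 called higher in stressed males and 3 of 4 in unstressed females against unstressed males. Red blood cell mRNAs were called higher in stressed males in 4 of 4 cases (19.3 to 24.1 CPM summed in NSM, 34.3 to 41.4 in SM), as was mir-144 of the same cells, and in 2 of 4 cases in unstressed females. The other red blood cell miR listed, mir-451a, had no read and was not tested. Of 6 muscle miRs 5 were tested, since mir-1a-2 had no read. They were called higher in 4 of 5 cases in stressed males (328 to 448 and 514 to 659 CPM summed) and in 2 of 5 in unstressed females. In stressed females 1 of 5 muscle miRs, mir-206, was called lower (-0.65, SE 0.20), with sums of 596 to 704 CPM in NSF and 472 to 580 in SF. Of 3 muscle mRNAs only *Acta1* was tested, and it was called in no comparison (0.20, SE 0.12, in males). Between the unstressed groups *Acta1* was at 0.34 (SE 0.12). *Myh1* had means of 0.136 CPM in NSM and 0.0686 in SM, from at most 9 reads per library, and *Ckm* was lower still. The interaction was called below 0 for 4 of 4 cortical and 4 of 4 red blood cell genes, for mir-144 and for 2 of 5 muscle miRs. None of 4 choroid plexus markers was called, but *Ttr* had 66.1 CPM in the mRNA library NSM replicate 1 and at most 2.62 in any other. Without that library *Sfmbt2* had log2 differences of -0.34 in males and -0.40 between the unstressed groups. The part of these differences in the levels of mir-466, mir-467 and mir-669c was not tested.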

How the data were processed

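Small RNA and mRNA of the NAc were each measured in 12 libraries, 3 per group. Per the study's methods, the authors ligated small RNA adapters with the ScriptMiner kit, sequenced all libraries on 1 lane, trimmed reads, discarded very short ones, aligned the rest to mm9 with Bowtie and counted them on miRBase entries with HTSeq. The deposited values are raw counts per precursor, without normalization. For mRNA the authors aligned reads with TopHat2 to NCBIM37 and deposited HTSeq counts per Ensembl gene. The strand setting and the treatment of multiply aligned reads are not given in the sources used here, and the counts of single hairpin copies depend on the latter.

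Rows were kept if over 5 reads were counted in 80% of a group's libraries, which for 3 libraries means all. They were scaled by TMM (edgeR 4.0.16), passed through voom and fitted with limma 3.58.1 in R 4.3.3, with 1 mean per group over all 12 libraries. Rows were called (regulated) by an unadjusted p under 0.05 together with a 1.3-fold difference or more, and p values were adjusted by Benjamini-Hochberg over every tested row. Levels are CPM. Groups came from the labels and no library was left out. The steps were tested on simulated counts.

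Members were placed by name in GENCODE and, where absent there, RefSeq. Full values are given for members called, for the 3 with the highest mean level per family and for numbered copies. The members, gene lists and marker lists were chosen with earlier results of these data known. Nothing states that the pools of a group were housed or handled apart, so p values measure the spread between these libraries only. An exact permutation test of 3 against 3 libraries cannot pass 0.05, so p values come from limma. Precision rests on 5086554 to 13522287 reads per small RNA library and 41076780 to 60867747 per mRNA library.

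The labels number the libraries 1 to 3 in every group. Deviations from the group means over small RNA rows had correlations of 0.133, 0.191 and 0.312 between same-numbered NSF and SF libraries, all above 0.1. In males the values were 0.0477, -0.0191 and 0.261, and the numbers were not taken as pairs. Over the members alone, the female correlations were -0.190, 0.0600 and -0.0245. The main fit takes no pairs, so the female values above are unpaired. The replicate block, which pairs the female libraries, called 4 members in females in place of 5. As alternatives, edgeR, DESeq2 1.42.0, other scalings, filters and calling rules, fits to 6 libraries, quality weights, a replicate block, identical rows counted once and fits without 1 library were tried, and, chosen after seeing the data, copies summed to 1 row.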

Additional observations from a re-analysis of the deposited data

Results flagged for a closer look

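The stress effect of mir-466n differed between the sexes by the interaction term of the model, at 1.41 on the log2 scale (standard error 0.65) with log2 fold changes of -1.23 (standard error 0.45) in males and 0.18 (standard error 0.47) in females. The adjusted p was 0.542 (limma), the row had a mean of 6.58 reads per library, and the call was kept in 4 of the 12 fits that each left out 1 library. It was lost with the replicate number as a block (1.37), edgeR, DESeq2, DESeq2's size factors, quantile normalization, quality weights and the filter for 1 read. The row was tested only because of its NSM libraries, where it was highest, so that the filter favored this direction.

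For mir-669a-3 the interaction was 1.38 (standard error 0.56, adjusted p = 0.486, limma), with a mean of 6.75 reads per library, and the call was kept in 8 of 12 such fits. This row was tested only because of its SF libraries, where its mean was highest, which favored a positive value. With at least 10 reads required in every library neither row was tested. Interaction calls were no more frequent among members (2 of 32, 6.25%) than among all tested rows (6.8%).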

How the results depend on the processing

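The number of regulated members changed with the settings, and the causes were not tested unless named here. Shares of all tested rows called under each setting, or without 1 library, are not given here. A change in the members therefore cannot be told apart from a change in calling over all rows. In males, where 3 members were called, DESeq2 called 0, scaling by library size or by DESeq2's size factors 1, the filter for at least 1 read in any library 6 of 60 tested, and the replicate block 5, although the male numbers were not taken as pairs. In females, where 5 were called, DESeq2 called 3, a minimum of 10 reads in every library 3 (26 members tested), quality weights 8, and copies summed to 1 row 2. The replicate block called 4 in females and in the baseline comparison, and 2 in the interaction, where mir-466n was not among them. In females it changed no call but that of mir-467a-1. Of 2 interaction calls, edgeR, DESeq2's size factors, quantile normalization and quality weights kept a count of 1, DESeq2 and the minimum of 10 reads gave 0, and the filter for at least 1 read gave 4. Unstressed females against unstressed males went from 5 to 2 with DESeq2 or the minimum of 10 reads, and to 3 with the 6 libraries compared alone. By the adjusted p, 0 members were called in any comparison.

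Leaving out 1 library gave 0 to 3 called members in males (0 without NSM replicate 3), 3 to 10 in females (10 without SF replicate 2, 3 without SF replicate 1 or 3), 0 to 4 in the interaction (0 without NSF replicate 1, 4 without SM replicate 2) and 2 to 5 between unstressed groups (2 without NSM replicate 3, NSF replicate 1 or NSF replicate 2). In females mir-669c, mir-467a-4 and mir-467a-8 each kept their call in 11 of 12 such fits, whereas mir-466c-1 in males kept it in 2 of 12. The male log2 fold change of mir-669c turned to 0.071 without SM replicate 2 and 0.03 without SM replicate 3, and was -0.37 without SM replicate 1. Between 68.8% (quantile normalization) and 84.4% (replicate block) of the tested members were below 0 in males over all settings.

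*Sfmbt2* mRNA passed the thresholds in males with scaling by library size (-0.39), and the fits without 1 library gave -0.40 to -0.26. Its interaction passed with edgeR (0.39), library size scaling (0.42), quantile normalization (0.39) or the replicate block (0.39), with 0.27 to 0.47 when 1 library was left out. Between unstressed groups it missed the fold threshold with quality weights (-0.34), with -0.47 to -0.30 when 1 library was left out. In females the sign turned without NSF replicate 1 (-0.04) or SF replicate 2 (-0.062), with a highest value of 0.13. The summed mir-467 level in NSM moved from 83.5 to 83.2 CPM with DESeq2's size factors, more than its SD, and the other 95 alternative sums stayed within 1 SD. With more than 5 reads required, 34 members in place of 60 were detected in any library, and at the smallest library total a mean of 41.6 members per library would be expected in place of 44.8.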
